A study of Mus musculus with 8 samples.

Results

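The guidance genes described here are the semaphorins and their plexin and neuropilin receptors, the ephrins and their Eph receptors, the netrins and their receptors, and the Slit ligands with their Robo receptors. They were chosen by symbol (Sema, Plxn, Nrp1, Nrp2, Efna, Efnb, Epha, Ephb, Ntn, Dcc, Unc5, Slit and Robo), and the 7 symbols of other genes that begin in the same way (Slitrk1 to Slitrk6 and Unc50) were left out. This gave 72 of the 20871 genes named in any file: 20 semaphorins, 9 plexins, 2 neuropilins, 8 ephrins, 14 Eph receptors, 6 netrins (netrin-G included), 6 genes of the netrin receptor group (Dcc, Unc5a to Unc5d and Unc5cl, an UNC5C-like protein not known as a netrin receptor), 3 Slit ligands and 4 Robo receptors. Of these, 48 were among the 11315 genes with an RNA level, all 72 had gene body counts and 69 had promoter counts of DNA hydroxymethylation. They held 7126 of the 1497075 CpG entries (a CpG on one strand) that had reads.

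The study asked how gene expression and DNA hydroxymethylation differ between adult oligodendrocyte progenitor cells (aOPC) and adult oligodendrocytes (aOL). Both populations were sorted by fluorescence from brains of C57BL/6 mice at postnatal day 60, aOPC from Pdgfra-H2BEGFP mice, in which the Pdgfra locus drives a nuclear EGFP, and aOL from Plp-EGFP mice, in which the Plp promoter drives EGFP. Each population had 2 RNA-seq libraries and 2 libraries of reduced representation hydroxymethylation profiling (RRHP), numbered replicates 2 and 3, and DNA and RNA were taken from the same pellets. Population and reporter line cannot be told apart, since each population came from a line of its own. For the RRHP libraries of aOL the tissue field gives the Pdgfra reporter, and the aOL RNA titles call the cells pre-myelinating while the protocol calls them myelinating, so the titles set the groups. Nothing in the labels says that replicates were separate animals, so the errors measure the spread between these libraries.

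Guidance cues are secreted or membrane-bound proteins that attract or repel growing axons and migrating cells. Secreted class 3 semaphorins bind neuropilins, which signal through A-type plexins, whereas the membrane-bound semaphorins of classes 4 to 7 bind plexins directly. Ephrins are bound to the membrane and signal through Eph receptor tyrosine kinases on the neighbouring cell, netrin-1 acts through DCC and UNC5 receptors, and Slits act through Robo receptors. In the oligodendrocyte lineage, semaphorins and netrin-1 are known to steer the migration of progenitors, and plexins, ephrins and Eph receptors take part in process extension and in the contact between oligodendrocyte and axon. RRHP reads 5-hydroxymethylcytosine (5hmC) at CCGG sequences only: 5hmC that carries an added glucose is not cut by the enzyme MspI, and uncut sites give reads.

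RNA levels are log2 values as deposited, in which the 4 libraries had been brought to nearly the same distribution, and they are not scaled to gene length, so levels were compared between libraries and not between genes. The aOPC RNA libraries were farther from each other (Pearson r = 0.931 across genes) than the aOL libraries (r = 0.985). Of the 9 OPC markers measured 1 lay higher (Sox10) and 3 lay lower (Pdgfra, Neu4 and Vcan) in aOL without overlap of the groups. Pdgfra had 7.54 and 5.47 in aOPC against 4.98 and 1.64 in aOL. Cspg4, Ptprz1, Gpr17, Olig2 and Lhfpl3 overlapped. Of 10 oligodendrocyte markers 2 lay higher (Cnp and Ermn) and 4 lower (Mog, Cldn11, Opalin and Aspa). Over all genes 31.9% were higher and 29.9% lower without overlap. The summed level of the oligodendrocyte markers was between 22.4 and 22.6 in all 4 libraries. By RNA the aOPC libraries thus held oligodendrocyte markers at summed levels close to aOL, and the name aOPC rests on the sort and the titles. Markers of other cells were also present: astrocyte markers summed to between 13.4 and 13.8, microglia markers to between 10.2 and 11.4 and neuron markers to between 11.7 and 12.5, with overlap between aOPC and aOL for the first 2 lists and lower values in aOL for the third. Endothelial and mural markers were measured for 2 of 8 genes and summed to 5.01 and 7.13 in aOPC against 6.96 and 9.96 in aOL, with Cldn5 at 0.333 and 1.80 in aOPC and at 5.92 and 7.13 in aOL. The part of these cells in the differences below was not tested, and in bulk libraries fewer cells of a type and less RNA per cell cannot be told apart. RRHP libraries held 7113237 and 17121440 counts in aOPC against 15923775 and 27057859 in aOL.

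No guidance gene passed the RNA test (limma, p under 0.01 and Benjamini-Hochberg adjusted p under 0.05 over all genes). Of the 46 guidance genes whose log2 level reached 5 in 2 or more libraries, 0 were called, where 0.0808% of the 11133 genes tested were called, and the smallest adjusted p by limma was 0.0738. At an unadjusted p under 0.05, 8 guidance genes (17.4%) were higher and 3 (6.52%) were lower in aOL, beside a background of 12.1% of all genes higher and 12% lower. The groups did not overlap in 10 guidance genes that were higher (21.7%, background 31.9%) and in 7 that were lower (15.2%, background 29.9%). Over the 46 genes the median log2 fold change (aOL over aOPC) was 0.14, beside 0.02 over all genes, and 29 of 46 (63.0%) lay above 0, beside 51.3% of all genes. The median was -0.025 without aOPC replicate 3, with 21 of 46 above 0, and 0.45 without aOPC replicate 2.

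Among the semaphorins, Sema6d, a membrane-bound ligand of plexin-A1, stood out. Its RNA level was 13.83 and 13.56 in aOPC against 15.37 and 15.35 in aOL. The aOL libraries were thus higher without overlap, by a log2 fold change of 1.67 with a standard error of 0.21 (3.17-fold, limma adjusted p = 0.108). The secreted semaphorin Sema3d had levels of 10.03 and 9.88 in aOPC against 11.15 and 10.80 in aOL, a difference of 1.02 ± 0.23 (limma adjusted p = 0.138). Sema3e, the secreted ligand of plexin-D1, had 5.83 and 6.79 in aOPC against 7.74 and 7.70 in aOL, a difference of 1.42 ± 0.38 (limma adjusted p = 0.16). For these 3 genes both aOL libraries lay above both aOPC libraries, and none passed the test after adjustment.

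Sema3a, a secreted repellent of progenitors, was listed at 4.89 and 5.27 in aOPC and at 1.57 and 1.64 in aOL. It lay below the filter on low values in both aOL libraries and in one aOPC library, so it was not tested, although its groups did not overlap. Sema3c, another secreted class 3 semaphorin, overlapped between the populations at 6.33 and 7.36 against 6.93 and 6.92. Sema4d, which binds plexin-B1 and is known to restrain differentiation of the lineage, had 14.36 and 13.84 in aOPC against 14.32 and 14.35 in aOL, a difference of 0.24 ± 0.26. Sema6a, a membrane-bound ligand of plexin-A4, was likewise close between the populations, at 14.41 and 13.79 against 14.25 and 14.28. The GPI-anchored Sema7a had 10.87 and 11.85 against 11.58 and 11.37, and the groups overlapped.

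Sema4f and Sema5a, membrane-bound semaphorins of the lineage list, had aOPC libraries that lay farther apart than the populations did. Sema4f had levels of 9.05 in aOPC replicate 2 and 4.76 in aOPC replicate 3, with 6.83 and 6.87 in aOL between them. Sema5a had 11.33 and 9.88 in aOPC against 10.98 and 10.35 in aOL. Of the 16 semaphorins tested, 13 had a log2 fold change above 0, the median was 0.17, and the groups did not overlap in 4 higher and 1 lower, where 31.9% and 29.9% of all genes did not. The lower one was Sema3b, at 8.04 and 8.94 against 8.01 and 7.96, a difference of -0.50 ± 0.36.

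The neuropilins lay on opposite sides. Nrp1, the co-receptor for class 3 semaphorins and for VEGF, had levels of 7.75 and 7.39 in aOPC against 5.20 and 4.21 in aOL, a log2 fold change of -2.86 ± 0.41 (limma adjusted p = 0.122). Nrp1 was called with the replicate block, where 1.14% of all genes were called. Fits that leave out a library are set beside all genes further below. Nrp2 had 9.26 and 8.65 in aOPC against 10.13 and 9.64 in aOL, a difference of 0.93 ± 0.33 (limma adjusted p = 0.201). In both genes the groups did not overlap, with Nrp1 lower and Nrp2 higher in aOL. Over all genes 31.9% were higher and 29.9% lower without overlap.

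The plexins, the signalling receptors of the semaphorins, had no member that passed the test. Of the 8 tested, 7 had a log2 fold change above 0, with a median of 0.78. The groups overlapped in 4 of these 7 and did not in 3, where 31.9% of all genes were higher without overlap. Without aOPC replicate 3 the values of Plxnb3 and Plxnc1 turned to -0.023 and -0.82, and Plxna2 then also lay lower in aOL (8.18 and 8.02, against 8.37 in the remaining aOPC library). Plxna3, an A-type plexin that pairs with neuropilins, had 9.51 and 8.44 in aOPC against 10.37 and 10.30 in aOL (1.36 ± 0.41, limma adjusted p = 0.177). Plxnb2, a receptor of class 4 semaphorins, had 9.26 and 8.60 in aOPC against 10.27 and 10.14 in aOL (1.27 ± 0.30, limma adjusted p = 0.145). Plxnb1, the receptor of Sema4d, had 13.24 and 12.28 in aOPC against 13.71 and 13.73 in aOL (0.96 ± 0.38, limma adjusted p = 0.23).

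Plxnb3, a plexin known for its high expression in oligodendrocytes, overlapped between the populations. Its level was 15.14 in aOPC replicate 2 and 15.11 and 15.12 in aOL, while aOPC replicate 3 was at 13.45. Plxna1 had 9.10 and 9.62 in aOPC against 10.27 and 9.54 in aOL, and Plxnc1, the Sema7a receptor, had 6.40 and 3.50 in aOPC against 6.08 and 5.08 in aOL, so neither was separated. Plxna4, which receives Sema6a and class 3 semaphorins, was the exception among plexins, with 7.05 and 6.66 in aOPC against 5.43 and 2.83 in aOL. Its log2 fold change was -2.72 ± 0.93 (limma adjusted p = 0.194), and the aOL libraries differed from each other by more than the aOPC libraries did. The value of 2.83 lay at percentile 1 of all genes in aOL replicate 3, so the size of this fold change is uncertain.

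**Figure D1:**
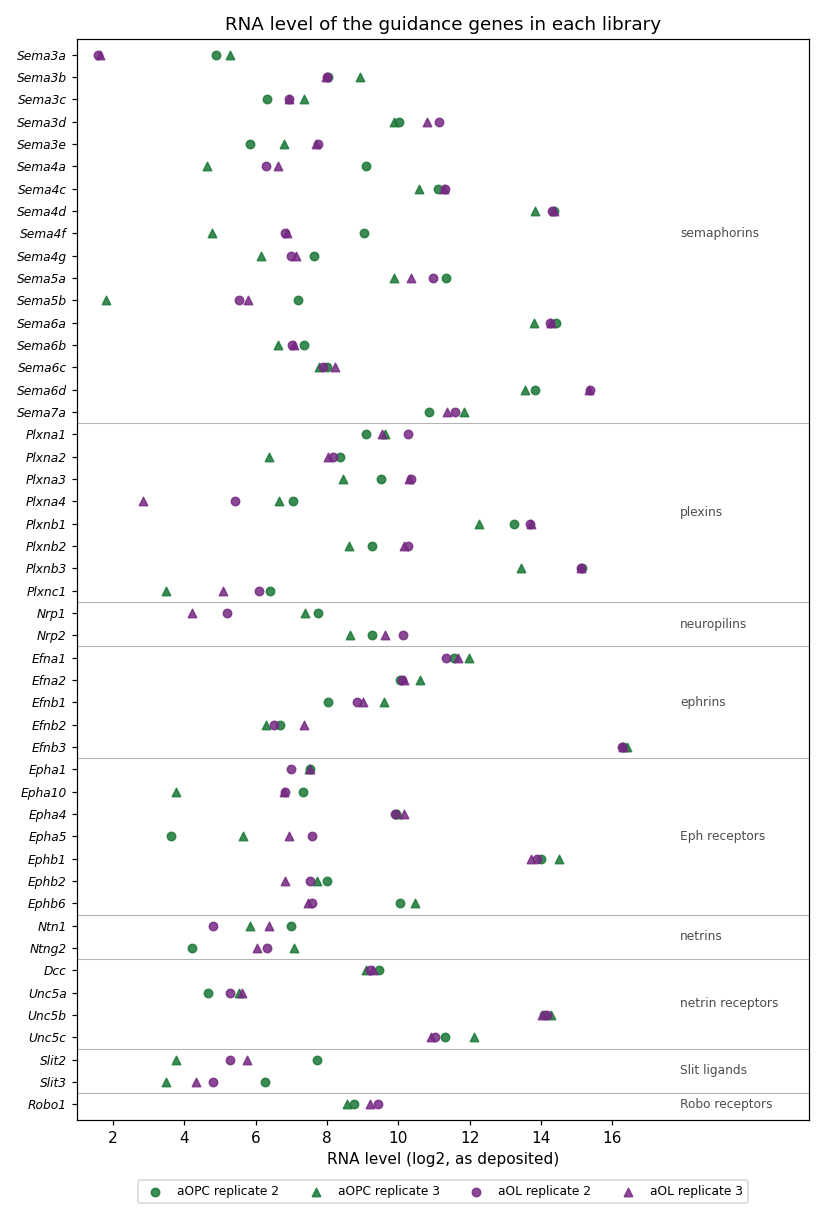
RNA level (log2, as deposited, horizontal axis) of the 48 guidance genes with RNA values, 1 row per gene grouped by family; green marks are aOPC and purple marks aOL libraries, circles replicate 2 and triangles replicate 3. The purple marks of a gene mostly lie close together, whereas the green marks are often far apart, as for Sema4f at 9.05 and 4.76; Ephb6, Nrp1 and Plxna4 lie lower in purple, and Sema6d and Plxnb2 lie higher.

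In all 5 tested ephrins, the ligands of the Eph receptors, the groups overlapped, where 31.9% of all genes were higher and 29.9% lower without overlap. The log2 fold changes lay between -0.26 and 0.46. Efnb3, a membrane-spanning ephrin, had 16.29 and 16.40 in aOPC against 16.28 and 16.30 in aOL, a difference of -0.05 ± 0.19. Efna1, which is GPI-anchored, had 11.56 and 11.97 against 11.34 and 11.67, and Efnb2 had 6.68 and 6.29 against 6.52 and 7.36.

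Of the Eph receptors, Ephb6, a member of the family without kinase activity, had the smallest RNA p of all guidance genes. Its level was 10.05 and 10.47 in aOPC against 7.58 and 7.47 in aOL, so aOL lay lower without overlap, by 2.74 on the log2 scale (-2.74 ± 0.24, 6.66-fold, limma adjusted p = 0.0738). It was called when genes had to reach a log2 level of 7 (limma adjusted p = 0.0478), where 0.323% of all genes were called. With the replicate block it was also called, where 1.14% of all genes were. Fits that leave out a library are set beside all genes further below. Ephb2 lay lower as well, at 7.99 and 7.73 against 7.53 and 6.83 (-0.69 ± 0.32, limma adjusted p = 0.273), and Ephb1 had 14.01 and 14.52 against 13.90 and 13.73 (-0.45 ± 0.26, limma adjusted p = 0.352). Epha5 lay the other way, at 3.64 and 5.65 in aOPC against 7.57 and 6.94 in aOL, a log2 fold change of 2.61 ± 0.75 (limma adjusted p = 0.17). Epha4, which binds ephrins of both classes, had 9.93 and 9.98 in aOPC against 9.90 and 10.16 in aOL and was not separated. Of the 7 Eph receptors tested, 3 were above 0, and the groups did not overlap in 1 higher and 3 lower, where 31.9% and 29.9% of all genes did not.

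Of the netrin family, Ntn1, the secreted netrin-1, had 6.98 and 5.85 in aOPC against 4.80 and 6.39 in aOL, and the groups overlapped. Its receptor Dcc had 9.46 and 9.08 against 9.19 and 9.28, a difference of -0.04 ± 0.23. The repulsive receptor Unc5b was equally close, at 14.09 and 14.29 against 14.16 and 14.01, and Unc5a had 4.66 and 5.54 against 5.28 and 5.63. Unc5c, a further UNC5 receptor, had 11.29 and 12.12 in aOPC against 11.04 and 10.92 in aOL, lower without overlap by 0.73 on the log2 scale (-0.73 ± 0.34, limma adjusted p = 0.277). Robo1, the only Robo receptor with RNA values, had 8.76 and 8.57 in aOPC against 9.43 and 9.19 in aOL (0.65 ± 0.21, limma adjusted p = 0.189). Its ligand Slit2 was at 7.73 and 3.77 in aOPC, with 5.28 and 5.75 in aOL between them.

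The spread between the aOPC libraries bears on every one of these values. Among the 46 guidance genes the aOPC libraries differed by more than 1 log2 unit in 16 (34.8%, against 17.6% of all genes), with a median difference of 0.70 log2 units, and the aOL libraries in 3 (6.52%, against 2.56% of all genes), with a median of 0.16. Leaving out aOPC replicate 2 gave 14 guidance genes called higher and 3 lower, and leaving out aOPC replicate 3 gave 8 higher and 6 lower. With a single aOPC library the model takes its spread from the aOL pair alone, and 36.3% and 21.3% of all genes were then called, beside 37.0% and 30.4% of the guidance genes. Without aOL replicate 2 there were 0 higher and 2 lower (Nrp1 and Plxna4), where 0.905% of all genes were called, and without aOL replicate 3 no guidance gene was called, where 0.896% were.

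The intracellular partners of these receptors were followed with a list of 50 genes (among them collapsin response mediators, adaptors and kinases), of which 45 were tested. Of these 0 were called (0.0808% of all genes were), 4 were higher and 3 lower in aOL at an unadjusted p under 0.05, where 12.1% and 12% of all genes were, and their median log2 fold change was 0.00. Dock1, an activator of Rac downstream of DCC, had 13.26 and 12.91 in aOPC against 14.19 and 14.06 in aOL (1.04 ± 0.23, limma adjusted p = 0.137). Farp2, an exchange factor that acts with A-type plexins, had 9.43 and 9.55 against 10.30 and 10.36 (0.84 ± 0.19, limma adjusted p = 0.142), and the collapsin response mediator Dpysl5 had 10.19 and 9.97 against 11.07 and 10.64 (0.78 ± 0.25, limma adjusted p = 0.185).

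On the other side, Srgap1, a GTPase-activating protein that binds Robo1, had 10.86 and 11.01 in aOPC against 10.17 and 10.12 in aOL (-0.79 ± 0.19, limma adjusted p = 0.148). Gipc1, an adaptor that binds the tail of neuropilin-1, had 12.54 and 12.36 against 11.45 and 11.70 (-0.87 ± 0.21, limma adjusted p = 0.149), and the kinase Cdk5 had 14.51 and 13.73 against 12.92 and 13.32 (-0.998 ± 0.35, limma adjusted p = 0.202). In these 6 genes the groups did not overlap, and over the list this held for 13 higher and 10 lower of 45, where 31.9% and 29.9% of all genes did not overlap.

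The next question was whether hydroxymethylation of the guidance genes differed between the populations. The guidance genes are long, with a median length of 57.1 kb against 20.9 kb over all genes (RefSeq, GRCm38), and had a median of 68 listed CpG entries against 20. They took between 0.506% and 0.551% of all RRHP counts in each library. Per listed entry, their median was 0.742 CPM (counts scaled to the library total, mean of the 4 libraries) beside 0.566 over all genes, and single genes ranged from 0.185 for Ntn3 to 1.60 for Sema6d.

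Summed over gene bodies (exons and introns), no guidance gene was called (edgeR quasi-likelihood test, adjusted p under 0.05): 0 of 72, where 0.849% of 18488 gene bodies were called. At an unadjusted p under 0.05, 3 were higher in aOL (4.17%, background 2.82%) and 2 lower (2.78%, background 4.48%). The differences were small. All 72 log2 fold changes lay within 0.47 of 0 and 52 within 0.2, with a median standard error of 0.14, and the median of 0.04 compared with 0.00 over all genes. Leaving out aOPC replicate 3 gave 8 called higher and 6 lower, where 22.6% of all gene bodies were then called. Leaving out aOPC replicate 2 gave 1 and 1 (2.78%, where 3.27% of all were called).

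The largest gene body differences belonged to Ntn5, Efnb1 and Plxnb3 on the higher side. Ntn5 encodes a netrin-like protein and had 22.9 and 27.5 CPM (scaled by TMM) in aOPC against 36.7 and 33.9 in aOL, a log2 fold change of 0.47 ± 0.14 (edgeR adjusted p = 0.312). It overlaps the gene Sec1, so reads there cannot be assigned to one gene. Plxnb3 had 9.36 and 9.93 CPM in aOPC against 14 and 12.8 in aOL (0.47 ± 0.18, edgeR adjusted p = 0.589). In these 2 genes aOL was higher without overlap, whereas the ephrin gene Efnb1 overlapped, at 10.1 and 5.97 against 8.75 and 12.4 CPM (0.47 ± 0.28, edgeR adjusted p = 0.75).

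On the lower side were Sema3a, Epha8 and Ntn3. Sema3a had 30.5 and 26.3 CPM in aOPC against 21.2 and 21.6 in aOL (-0.39 ± 0.14, edgeR adjusted p = 0.514). The Eph receptor gene Epha8 had 53.4 and 58.6 against 40.4 and 45.2 CPM (-0.39 ± 0.13, edgeR adjusted p = 0.407), and the netrin gene Ntn3 had 12.2 and 6.86 against 7.62 and 6.65 (-0.37 ± 0.28, edgeR adjusted p = 0.778). Sema3a and Epha8 did not overlap between the populations, and Ntn3 did. In Epha8 5 single CpG entries described below held 63 and 231 counts in aOPC against 0 and 1 in aOL. Without them its counts came to 44.6 and 44.9 CPM in aOPC and to 40.4 and 45.2 in aOL. These entries were picked by the same counts, so a smaller difference without them was fixed in advance.

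**Figure D2:**
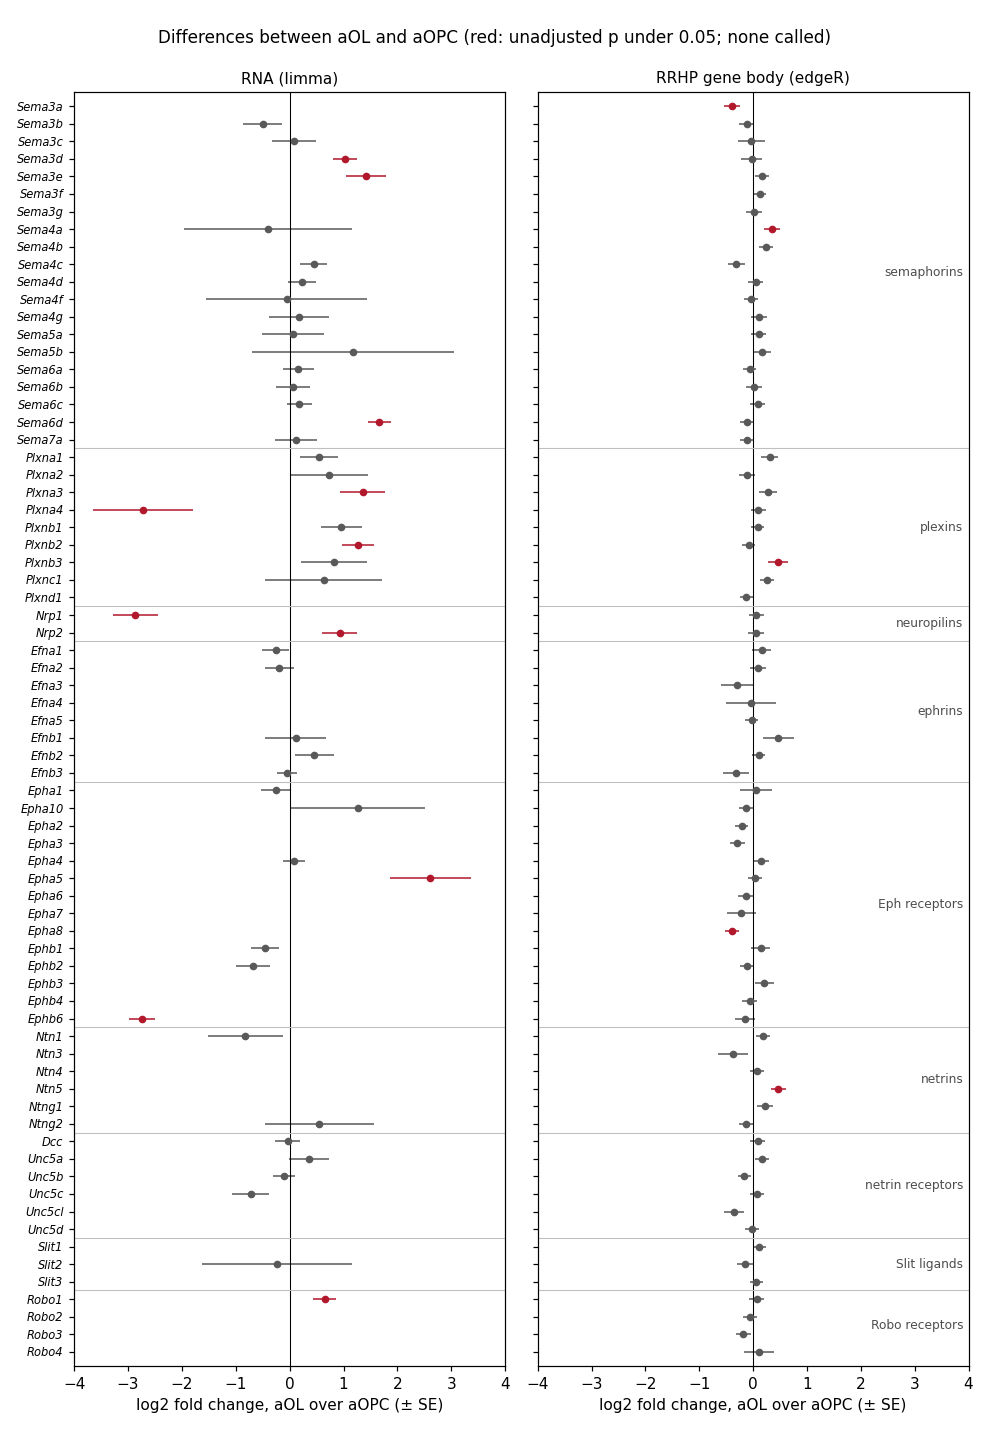
Log2 fold change of aOL over aOPC (points, with standard errors as bars) for RNA by limma (left) and for RRHP gene body counts by edgeR (right), 1 row per guidance gene grouped by family, n = 2 libraries per population and assay. Both panels share 1 scale: RNA differences reach -2.86 for Nrp1 and 2.61 for Epha5, whereas all gene body differences lie within 0.47 of 0; red marks an unadjusted p under 0.05, and no gene passed the tests after adjustment.

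At promoters, 67 of the 69 guidance genes had enough counts to be tested, and 0 were called, where 0.768% of 14579 promoters were called. At an unadjusted p under 0.05, 5 were higher (7.46%, background 4.18%) and 1 lower (1.49%, background 1.79%). Promoter counts were low, and the median standard error of 0.42 was larger than for gene bodies. Scaling mattered here: the TMM factor of aOPC replicate 2 was 1.75, against 0.76 to 0.94 in the other libraries, and without TMM the median of all promoters moved from -0.01 to -0.60. On library totals 0 guidance promoters were higher and 8 lower at an unadjusted p under 0.05. CpG islands held 5.74% of all counts in aOPC replicate 2 and 2.38% to 3.32% in the others. Without aOPC replicate 3, 4 guidance promoters (5.88%) were called higher, where 11% of all promoters were called in either direction, and without aOPC replicate 2, 1 (1.49%) was, where 1.45% were.

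Sema4a, a class 4 semaphorin, had the smallest promoter p of the guidance genes. Its promoter held 8 and 25 counts in aOPC against 59 and 71 in aOL, which is 0.643 and 1.81 CPM against 4.90 and 2.80 after TMM scaling, a log2 fold change of 1.59 ± 0.46 (edgeR adjusted p = 0.147). Most of these counts came from one CCGG on chromosome 3, read on the plus strand at position 88460254 (GRCm38, 1-based), with 6 and 22 counts in aOPC against 49 and 60 in aOL. Alone, this site gave a log2 fold change of 1.14 ± 0.40 (edgeR adjusted p = 0.255). The promoter and site values are scaled differently: the TMM factor of aOPC replicate 2 was 1.75 for promoters and 0.89 for single entries. The site is printed with 20 bases on each side, plus strand, with the CCGG in capitals.
Sema4a promoter, chr3:88460233-88460276: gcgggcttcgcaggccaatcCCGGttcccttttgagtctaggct

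The gene body of Sema4a was also higher in aOL, at 18.6 and 23.6 CPM against 26.9 and 27.7 (0.35 ± 0.15, edgeR adjusted p = 0.668), while its RNA level overlapped, at 9.10 and 4.63 in aOPC against 6.30 and 6.61 in aOL. Among promoters with at least 20 reads in every library, those of Efnb1 and Ntn5 had the largest differences on the higher side, 1.17 ± 0.43 and 1.11 ± 0.49 (edgeR adjusted p = 0.43 and 0.705), followed there by Sema4f at 0.60 ± 0.38. Efnb1 held 53 and 35 counts in aOPC against 82 and 213 in aOL, and Ntn5 25 and 83 against 118 and 194.

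Among the same promoters, those with at least 20 reads in every library, the lowest values were those of Nrp2, Plxnb1 and Ephb2, at -0.83 ± 0.39, -0.79 ± 0.39 and -0.73 ± 0.41 (edgeR adjusted p = 0.778, 0.842 and 0.991). Plxnb1 held 64 and 72 counts in aOPC against 25 and 95 in aOL, and Ephb2 92 and 82 against 38 and 121. For Nrp2 the promoter held 72 and 86 counts in aOPC against 39 and 88 in aOL, and one of its CpG entries was called lower. That entry, in the first exon at chromosome 1, position 62704183 (minus strand), had 23 and 54 counts in aOPC against 0 and 0 in aOL. The remaining counts of 49 and 32 in aOPC against 39 and 88 in aOL overlapped after scaling, at 3.94 and 2.32 against 3.24 and 3.47 CPM. The entry was picked by the same counts, so a smaller difference without it was fixed in advance.

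Upstream of a RefSeq start of Ephb6 and of Nrp1, which had the lowest and the third lowest RNA p, RRHP reads were few in every library. Both windows lie inside the outer bounds of their genes and overlap untranslated exons of predicted transcripts. The 250 bases before the Ephb6 start hold 3 CCGG, the only sequence RRHP can read, and gave 10 and 8 counts in aOPC against 4 and 17 in aOL. The same window of Nrp1 holds 2 CCGG and gave 11 and 4 counts against 3 and 8.

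At single CpG entries, 2366 of those in guidance genes or their promoters had at least 10 reads in at least 2 libraries. By edgeR, 23 (0.972%) were called higher in aOL and 20 (0.845%) lower, beside a background of 1.21% and 1.08% of 443062 entries. The called entries lay in 16 of the 72 genes, 37 in introns, 6 in exons and 1 of the latter also in a promoter, and 2 were in CpG islands. In 37 of the 43, the lower population had at most 3 counts in each library. These entries passed the filter of 10 reads only through the population where they were high, which limits the weight of their p-values. The share of such entries was 86.0%, and 76.4% among all called entries. Folds of these sites are given as lower bounds, with 3 counts per library as the floor. Without aOL replicate 2 there were 0 called higher and 22 lower (1.04%, where 1.16% of all entries were called), and without aOL replicate 3 there were 0 and 16 (0.836%, where 1.31% were). Over all entries the higher calls fell from 5382 to 306 and 252 in these settings. Without aOPC replicate 2 the counts were 33 higher and 2 lower (1.5%, where 1.66% of all entries were called), and without aOPC replicate 3 they were 53 and 84 (6.42%, where 6.74% of all entries were called). When the test was refitted on the 986 entries with 10 or more reads in all 4 libraries, 0 were called higher and 1 lower, where 0.286% of all such entries were called.

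The 5 called sites with the most reads in the higher population, in each direction, are printed with 20 bases on each side of the CCGG (GRCm38, plus strand, CCGG in capitals), since these are the sequences on which the site differences rest. Those called higher in aOL come first.
Ephb1 intron, chr9:101924800-101924843: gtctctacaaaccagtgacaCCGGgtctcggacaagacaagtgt
Ephb2 intron, chr4:136655730-136655773: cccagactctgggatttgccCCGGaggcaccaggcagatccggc
Ephb2 exon, chr4:136771510-136771553: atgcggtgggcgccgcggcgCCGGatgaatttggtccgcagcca
Ntn5 intron, chr7:45693107-45693150: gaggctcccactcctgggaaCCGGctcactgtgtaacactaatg
Plxnc1 intron, chr10:94903304-94903347: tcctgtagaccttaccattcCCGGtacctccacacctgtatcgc
Those called lower in aOL follow, and a further Sema6d site had as many reads (92) as the last of them.
Ephb2 intron, chr4:136680143-136680186: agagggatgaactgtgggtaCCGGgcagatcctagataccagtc
Ephb2 intron, chr4:136790706-136790749: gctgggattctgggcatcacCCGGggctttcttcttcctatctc
Ephb2 intron, chr4:136811529-136811572: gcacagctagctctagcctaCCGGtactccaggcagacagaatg
Sema6d intron, chr2:124651232-124651275: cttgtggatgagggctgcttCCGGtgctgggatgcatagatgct
Ephb2 intron, chr4:136778383-136778426: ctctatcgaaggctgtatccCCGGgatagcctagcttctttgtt

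Of the 43 called entries 22 lay in the neighbouring receptor genes Ephb2 (17 of 138 tested) and Epha8 (5 of 30 tested), which are 93.1 kb apart on chromosome 4. Outside them, 14 of 2198 entries (0.637%) were called higher and 7 (0.318%) lower. Ephb2 (chromosome 4, 136647536 to 136836326, minus strand) had entries in both directions. The intron site at 136655751 (plus strand) had 2 and 0 counts in aOPC against 59 and 112 in aOL, which is at least 13.1-fold higher in aOL (adjusted p = 0.000291 by edgeR). The exon site at 136771531, which lies in coding sequence and in a CpG island, had 0 and 0 against 36 and 56, which is at least 7.25-fold higher in aOL (adjusted p = 0.000418 by edgeR).

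Of the Ephb2 sites that were lower, the one at 136680164 had 24 and 142 counts in aOPC against 2 and 0 in aOL, which is at least 39.0-fold lower in aOL (adjusted p = 2.5e-05 by edgeR). At 136790728 the counts were 42 and 94 against 0 and 1, at 136811551 43 and 67 against 0 and 0, and at 136778405 33 and 59 against 0 and 1. Counted from the RefSeq start, the 17 called entries were higher at 3.31 and 3.48 kb (2 entries), lower from 24.5 to 57.8 kb (7), higher from 64.5 to 142 kb (5), lower at 156 kb (1) and higher at 178 and 180 kb (2). These ranges were read from the values, and the order was not tested.

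All 5 called entries of Epha8 (chromosome 4, 136929419 to 136956859) were intronic and lower, with 10 to 14 counts in aOPC replicate 2, 40 to 51 in aOPC replicate 3, and 0 or 1 in the aOL libraries. The gene body of Ephb2 as a whole differed little, at 275 and 296 CPM in aOPC against 272 and 254 in aOL (-0.12 ± 0.13, edgeR adjusted p = 0.823).

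The region around these genes stood apart in the same way. In the 5 Mb bin that holds Ephb2 and Epha8, 11.9% of all tested entries were called with at most 3 counts in each library of one population, rank 13 of 532 bins, where the median bin had 0.55%. Epha2, a further Eph receptor gene on chromosome 4, had 1 entry called in each direction and lay in a bin with 13.7% (rank 8), and Ntn5 in one with 5.29% (rank 42). The entry of the opposite strand at the same CCGG was listed for 13 of the 37 sites, and at 9 of these, 6 in Ephb2, it had more than 3 counts in all 4 libraries. At 136771531, for example, the opposite strand had 40 and 60 counts in aOPC against 67 and 134 in aOL.

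**Figure D3:**
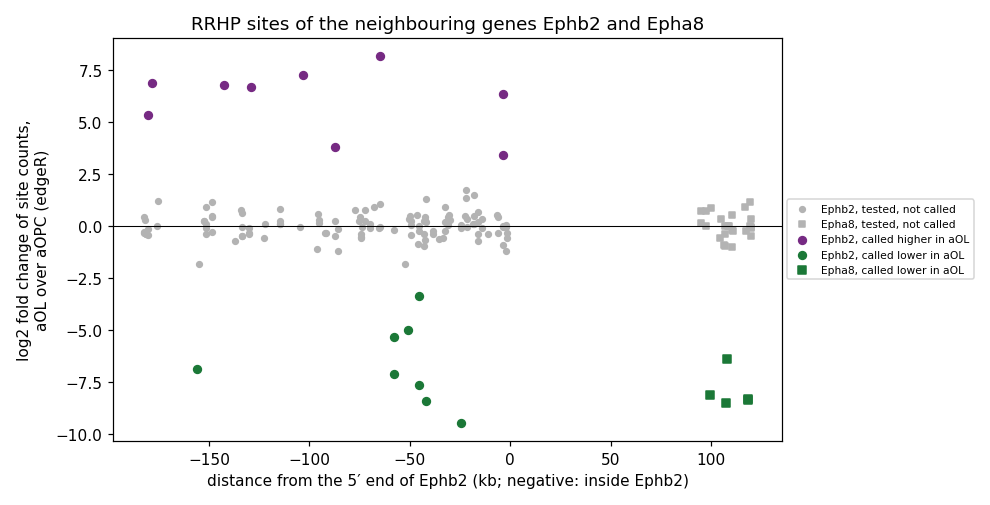
Log2 fold change of single RRHP entries (edgeR, aOL over aOPC, vertical axis) against the distance from the 5′ end of Ephb2 in kb (negative inside Ephb2, positive towards Epha8), for the 138 tested entries of Ephb2 (circles) and the 30 of Epha8 (squares). Grey entries were not called and lie near 0; purple entries were called higher and green entries lower in aOL, 9 and 8 in Ephb2 and 0 and 5 in Epha8, well apart from the grey ones.

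In the other genes called entries were single or few. The intron of Ephb1 (chromosome 9) had 2 sites that were higher in aOL, at 101924822 with 0 and 2 counts in aOPC against 73 and 263 in aOL (higher by at least 24.0-fold, adjusted p = 6.4e-05 by edgeR), and at 101924404 with 0 and 0 against 13 and 36. Plxnc1 had one site with 2 and 3 counts in aOPC against 43 and 41 in aOL (higher by at least 7.06-fold, adjusted p = 0.00908 by edgeR). Its call was lost without aOPC replicate 3 (edgeR adjusted p = 0.0585). Ntn5 had 3 sites, of which one intron site had 0 and 0 counts in aOPC against 34 and 53 in aOL, one exon site that is also in Sec1 had 0 and 0 against 25 and 33, and one intron site had 16 and 17 against 0 and 0. Nrp2 had, beside the first exon site, an intron site with 0 and 1 counts in aOPC against 14 and 19 in aOL.

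Single sites were called higher in introns of Plxna4 (1 and 1 counts in aOPC, 33 and 27 in aOL), Slit1 (0 and 0, 20 and 18), Unc5d (0 and 0, 18 and 20), Epha4 (0 and 0, 12 and 17) and Sema6c (1 and 0, 19 and 21), and in an exon of Sema4c (0 and 1, 12 and 20). Sema4d had one intron site with 1 and 8 counts in aOPC against 30 and 45 in aOL (edgeR adjusted p = 0.0489). Sema3g, whose product is a secreted class 3 semaphorin, had one exon site that was lower, with 18 and 17 counts in aOPC against 0 and 0 in aOL.

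At the called sites of Sema6d, every library had 16 or more counts. The 3 sites, all in introns and all lower in aOL, had 28 and 64 counts in aOPC against 21 and 36 in aOL (position 124616722 on chromosome 2), 34 and 60 against 20 and 45 (124651253), and 22 and 63 against 16 and 39 (124651419). The log2 fold changes were -1.62, -1.54 and -1.53 (edgeR adjusted p = 0.0179, 0.0382 and 0.0362). The latter pair lay 2.33 and 2.16 kb before a RefSeq start inside the gene. Of these 3 calls at least 2 were lost in the refit on entries with 10 or more reads in all 4 libraries. The site at 124651253 was no longer called with DESeq2 (adjusted p = 0.121), and its edgeR adjusted p was 0.0904 without aOPC replicate 2, 0.942 without aOL replicate 2 and 0.233 without aOL replicate 3. Apart from these sites the gene body gave 63.0 and 67.7 CPM in aOPC against 71.0 and 62.8 in aOL. The sites were picked by the same counts, so this cannot show where a difference lies.

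Counted per gene, 13 guidance genes (18.1%) had a gene body entry called higher and 7 (9.72%) one called lower, beside 11.2% and 5.81% of the 16758 genes with a tested entry. Guidance genes had more listed entries per gene, as given above, and the part of this in the counts was not tested. Differentially hydroxymethylated regions (DhMR, a window of 2 kb in which 2 or more entries were called and all in one direction) that were higher in aOL lay in 2 guidance genes (2.78%, background 0.913%), Ephb1 and Ephb2, and lower ones in 3 (4.17%, background 1.9%), Epha8, Ephb2 and Sema6d. Each of these 6 windows held 2 called entries, so with at least 3 entries none was left. Without aOL replicate 2 or aOL replicate 3 the higher count was 0, without aOPC replicate 2 the lower count was 0, and without aOPC replicate 3 the counts were 4 and 7. The entries called lower over all genes numbered 4772 with all libraries, 920 without aOPC replicate 2 and 15643 without aOPC replicate 3.

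The RNA and gene body differences were next compared gene by gene. Across the 46 guidance genes tested in both, the 2 sets of log2 fold changes had a Spearman correlation of 0.08, and 26 had the same sign in both. Over 10388 genes the correlation was 0.14, and 5745 had the same sign. These coefficients describe genes measured in shared libraries, with DNA and RNA from the same pellets, and genes are not independent replicates. The 3 tested genes with the lowest RNA fold changes differed little in gene body counts. Sema3a, not tested by RNA, had a lower mean RNA level in aOL (a difference of -3.48 on the log2 scale) and the lowest gene body fold change given above. Nrp1 had 24.0 and 24.0 CPM in aOPC against 25.1 and 25 in aOL, a log2 fold change of 0.06 ± 0.14. Plxna4 had 146 and 171 CPM against 174 and 166, and Ephb6 had 21.2 and 15.6 against 15.4 and 17.1, and in both the groups overlapped. Sema6d had 74.8 and 78.7 CPM in aOPC against 74.5 and 67.2 in aOL.

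**Figure D4:**
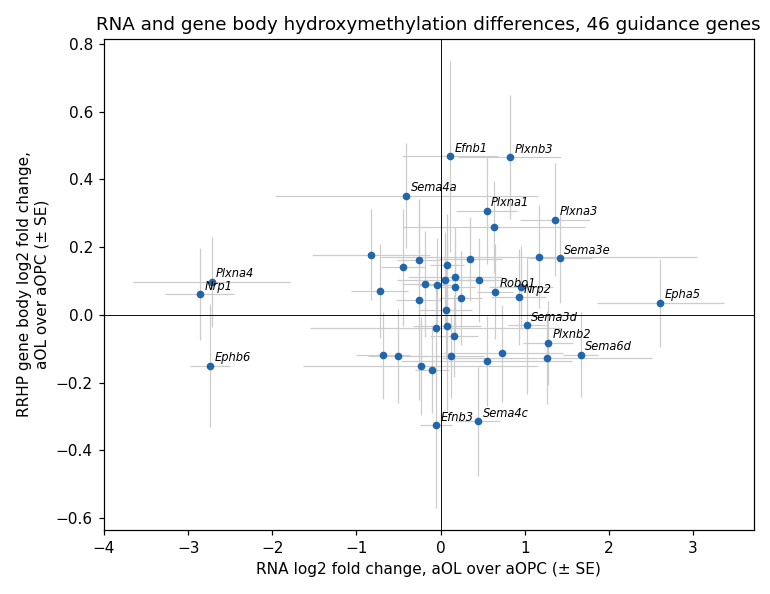
RNA log2 fold change (horizontal axis, limma) against RRHP gene body log2 fold change (vertical axis, edgeR), aOL over aOPC, for the 46 guidance genes tested in both, with standard errors as grey bars and names for genes with an RNA p under 0.05 or a gene body difference over 0.3 from 0. Points spread far more along the RNA axis, from -2.86 to 2.61, than along the gene body axis, from -0.33 to 0.47, and form no line (Spearman 0.08).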

How the data were processed

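RNA-seq and RRHP were each done on 2 aOPC and 2 aOL libraries (replicates 2 and 3). The authors deposited RNA levels as log2 values per gene, whose medians lay between 10.569 and 10.572 in the 4 libraries; the methods name BWA, mm10, featureCounts and DESeq2 normalization, and the offset before the log2 and the step that made the distributions alike are not given in the sources used here. The authors also deposited raw RRHP counts per CpG and strand, mapped to mm10. The depth was 7113237 to 27057859 counts per RRHP library, and 3 counts, the floor for an entry at 0, came to 0.111 to 0.422 CPM (counting error only). The RNA files hold no read counts, so no counting error is given for RNA levels.

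RNA was tested with limma 3.58.1 on genes whose log2 level reached 5 in 2 or more libraries. RRHP counts were summed over gene bodies and promoters as the deposited annotation assigns them, and these sums and single entries that reached 10 reads in 2 or more libraries were tested with edgeR 4.0.16 (quasi-likelihood, TMM), with DESeq2 1.42.0 as an alternative. All p-values were two-sided and adjusted over all features tested. Scripts were tested on simulated data. Positions and sequences came from RefSeq, GRCm38.p6.

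Named genes were guidance genes with known roles in the lineage, any that were called, the 8 smallest RNA p in each direction under 0.05, the 3 highest and 3 lowest fold changes of gene bodies (at least 50 reads in every library) and of promoters (at least 20), and up to 5 called sites per direction; the further called sites, Sema3b, the Sema4a promoter and the windows before Ephb6 and Nrp1 were added after their values were seen. The members and lists were chosen with earlier results of these data known.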

Additional observations from a re-analysis of the deposited data

How the results depend on the processing

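Most values kept their direction under the alternatives. With a minimum log2 level of 7 in 2 libraries 1 guidance gene (Ephb6) was called lower by RNA, where 0.323% of all genes were called. Of the gene bodies 1 was higher and 1 lower at an unadjusted p under 0.05 with DESeq2. For promoters these counts were 3 and 0 with DESeq2 and 0 and 8 on library totals. With no filter the lower count was 2, and 1 promoter was called higher (1.45%, where 1.3% of all promoters were called). The lower count was 3 with only entries of at least 3 reads in every library. With those entries the Nrp2 promoter turned to 0.20 on the log2 scale, and on library totals the Sema4f promoter to -0.001. Of single entries DESeq2 called 7 higher and 17 lower (1.01%, where 1.49% of all entries were called). A minimum of 10 reads in every library left 0 higher and 1 lower (0.101%, where 0.286% were) and no gene with a DhMR (0 and 0). A minimum of 5 reads in 2 libraries gave 27 higher and 40 lower (2.0%, where 2.28% were). With at least 3 entries in a window the DhMR counts were 0 and 0. The cause was not tested.

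The labels do not say whether the replicate numbers pair the samples. The deviations of replicate 2 from the group means correlated by -0.074 (RNA) and -0.08 (RRHP) between populations. With so few replicates this cannot show whether the samples were paired. With the replicate block, 0 guidance genes were called higher and 2 lower by RNA (Ephb6 and Nrp1), where 1.14% of all genes were called. At an unadjusted p under 0.05 the block gave 1 gene body higher and 2 lower, and 2 promoters higher and 0 lower, and it called 30 entries higher and 28 lower (2.45%, where 2.94% of all were called).

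Leaving out 1 library at a time gave 0 to 14 guidance genes called higher and 0 to 6 called lower by RNA, and 3 to 22 higher and 3 to 9 lower at an unadjusted p under 0.05. For gene bodies these ranges were 0 to 8 and 0 to 6 called, and 0 to 15 and 0 to 11 unadjusted. For promoters 0 to 4 were called higher, and 1 to 7 were higher and 0 to 6 lower unadjusted. Entries called ranged from 0 to 53 higher and 2 to 84 lower, and genes with a DhMR from 0 to 4 higher and 0 to 7 lower.

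Among the genes named by the rule, leaving out 1 library turned the direction of these RNA log2 fold changes, none of which was called with all libraries (genes outside the rule for RNA also turned, Sema4a, Efnb1 and Plxna2 among them): Dcc from -0.23 to 0.15, Efnb3 from -0.11 to 0.003, Epha4 from -0.051 to 0.20, Plxnb3 from -0.023 to 1.67, Plxnc1 from -0.82 to 2.08, Sema3c from -0.44 to 0.60, Sema4d from -0.027 to 0.50, Sema4f from -2.20 to 2.09, Sema5a from -0.67 to 0.78, Sema6a from -0.15 to 0.47, Sema7a from -0.37 to 0.61, Slit2 from -2.22 to 1.74, Unc5a from -0.083 to 0.79. The gene body value of Ntn3 ranged from -0.77 to 0.046.

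The single library left in a population is assumed to vary like the other population.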

Other observations

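Of 20 further guidance cues and receptors outside the families above, 12 had RNA values, and 0 were called by limma (0.0808% of all genes were). At an unadjusted p under 0.05, 5 were higher and 2 lower in aOL, where 12.1% and 12% of all genes were. Neo1, the netrin and RGM receptor neogenin, had levels of 13.77 and 13.19 in aOPC against 14.83 and 14.67 in aOL (log2 fold change 1.27 ± 0.28, limma adjusted p = 0.137). Rgmb, an RGM ligand of neogenin, had 10.999 and 10.77 against 11.67 and 11.54 (0.72 ± 0.20, limma adjusted p = 0.167). Cntn2, a contactin found at the juxtaparanodes of myelinated axons, had 16.52 and 15.78 against 17.16 and 17.02 (0.94 ± 0.32, limma adjusted p = 0.194). In these 3 genes the aOL libraries were higher without overlap. Over the 12 genes the groups did not overlap in 6 higher and 3 lower, where 31.9% and 29.9% of all genes did not.

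On the lower side, Boc, a receptor of Sonic hedgehog, had 7.26 and 5.94 in aOPC against 1.57 and 3.61 in aOL (-4.01 ± 0.86, limma adjusted p = 0.137), and Flrt2, a ligand of UNC5 receptors, had 5.75 and 7.07 against 4.80 and 2.83 (-2.59 ± 0.84, limma adjusted p = 0.188). Both passed the filter on low values through the aOPC libraries alone. Boc lay below percentile 1 of all genes in aOL replicate 2 (3.03), and Flrt2 lay at it in aOL replicate 3 (2.83). The offset before the log2 is not known, so the sizes of these 2 fold changes are uncertain. Higher in aOL were Vegfa and Kdr. Vegfa, a ligand of neuropilin-1, had 10.82 and 10.66 against 11.24 and 11.33 (0.55 ± 0.19, limma adjusted p = 0.202), and its receptor Kdr had 9.06 and 9.36 against 9.73 and 10.07 (0.69 ± 0.24, limma adjusted p = 0.199).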
